A study of Mus musculus with 6 samples.

Results

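The genes described here are 10 markers of macrophages in mouse back skin, 3 that encode the chains of complement C1q (C1qa, C1qb and C1qc), 5 receptors of tissue macrophages (Csf1r, Emr1, Mrc1, Cd163 and Folr2) and 2 products of alternatively activated macrophages (Arg1 and Chil3). They were chosen by symbol, each matched a single row, and they make up 10 of 35275 listed genes. All 10 had enough counts to be tested, as did 15720 genes in the whole table. Emr1 is the older symbol of Adgre1 and encodes the surface protein F4/80.

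RNA was sequenced from the epithelial region of back skin of C57BL/6 mice. There were 3 libraries of IL-33 KO mice, which lack the epithelial cytokine interleukin-33, and 3 of WT mice. Both genotypes carried the same treatment, 0.25% DNFB (dinitrofluorobenzene, a contact allergen) in acetone and olive oil on the back skin 3 times a week for 22 days, so there is no untreated skin to set the levels against. Age and sex of the mice are not given in the labels, nor is it stated that each library came from a separate mouse, so the p-values speak of differences between libraries, which may be technical. The total count was 20459574 to 23671769 in IL-33 KO libraries and 21312392 to 24359612 in WT libraries. Il33 had 21, 22 and 11 counts in IL-33 KO libraries 1, 2 and 3, against 3906, 3086 and 2817 in WT libraries 1, 2 and 3, in the direction the labels give. Levels below are given as CPM, counts scaled to library size with TMM correction, or, to set genes against each other, as the authors' FPKM, which also divides by gene length.

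Macrophages settle in skin as resident cells or arrive as monocytes, and Csf1r, the receptor of the growth factors CSF1 and IL-34, keeps most of them alive. Interleukin-4 and interleukin-13, which IL-33 can elicit from innate lymphoid cells, mast cells and T helper cells, drive mouse macrophages into the alternatively activated state, with arginase 1 and the chitinase-like protein Ym1 (the product of Chil3) as products and the mannose receptor Mrc1 at the surface. Resident macrophages also clear debris through scavenger receptors such as Cd163 and secrete C1q, which starts the classical complement pathway.

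The RefSeq promoter windows shown here (250 bases before to 50 after the gene start, assembly GRCm38.p6, 5′ to 3′ on the strand of the gene) belong to members whose levels went together over the libraries, C1qb with C1qc and Cd163 with Folr2, and to Chil3, the member whose genotypes did not overlap in CPM. Capitals mark exact matches, on either strand, to 3 motifs: GAGGAA, a core bound by the myeloid factor PU.1; TGCTGA, a half-site of MAF factors; and a STAT6-type palindrome, TTC and GAA with any 4 bases between. The motifs do not overlap each other in these windows.
C1qb (chr4:136886151-136886450, minus strand): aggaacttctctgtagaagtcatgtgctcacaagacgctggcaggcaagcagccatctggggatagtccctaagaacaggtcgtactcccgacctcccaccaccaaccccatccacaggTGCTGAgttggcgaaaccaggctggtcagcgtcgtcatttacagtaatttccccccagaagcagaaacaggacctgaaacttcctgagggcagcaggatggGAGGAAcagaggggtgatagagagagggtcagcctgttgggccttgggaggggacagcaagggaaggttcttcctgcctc
C1qc (chr4:136892865-136893164, minus strand): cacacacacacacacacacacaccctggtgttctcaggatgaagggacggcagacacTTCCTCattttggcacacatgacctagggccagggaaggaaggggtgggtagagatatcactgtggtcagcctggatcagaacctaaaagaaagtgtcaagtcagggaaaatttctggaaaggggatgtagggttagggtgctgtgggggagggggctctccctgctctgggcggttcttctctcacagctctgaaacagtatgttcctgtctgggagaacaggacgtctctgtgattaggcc
Cd163 (chr6:124304401-124304700, plus strand): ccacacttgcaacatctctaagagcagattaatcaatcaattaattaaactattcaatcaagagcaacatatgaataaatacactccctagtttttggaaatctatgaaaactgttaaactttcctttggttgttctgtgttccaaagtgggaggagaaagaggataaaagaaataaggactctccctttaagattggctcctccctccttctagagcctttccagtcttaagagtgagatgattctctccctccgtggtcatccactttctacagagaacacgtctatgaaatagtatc
Folr2 (chr7:101845282-101845581, minus strand): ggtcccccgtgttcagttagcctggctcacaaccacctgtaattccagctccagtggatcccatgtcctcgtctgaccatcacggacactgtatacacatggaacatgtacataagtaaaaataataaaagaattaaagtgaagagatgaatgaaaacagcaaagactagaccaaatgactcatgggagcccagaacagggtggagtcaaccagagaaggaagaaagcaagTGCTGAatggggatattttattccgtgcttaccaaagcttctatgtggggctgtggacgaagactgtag
Chil3 (chr3:106167515-106167814, minus strand): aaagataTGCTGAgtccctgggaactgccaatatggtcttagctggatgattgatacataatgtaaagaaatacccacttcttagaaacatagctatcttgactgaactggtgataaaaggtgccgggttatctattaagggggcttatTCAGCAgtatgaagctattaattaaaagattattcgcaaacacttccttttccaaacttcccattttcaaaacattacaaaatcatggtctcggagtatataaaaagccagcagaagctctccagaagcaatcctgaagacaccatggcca
GAGGAA was in the windows of C1qb, 30 bases before the start and on the gene's strand, and C1qc, on the other strand. Of all 32851 windows 28.3% hold it. TGCTGA was found 1 time each in the C1qb and Folr2 windows and 2 times in that of Chil3, against 19.5% of all windows with at least 1 match. The STAT6-type palindrome was in none of the 5 windows and in 6.95% of all. The Cd163 window held no match. These are matches of letters only.

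No member passed the test between the genotypes. In edgeR's quasi-likelihood test, adjusted over all 15720 genes by Benjamini-Hochberg, 0 of 10 members reached an adjusted p of 0.05, where 0.0191% of all genes tested did (0.0127% higher and 0.00636% lower in IL-33 KO). In DESeq2 and limma-voom 0 of 10 members passed too, where 1.31% and 0.07% of all genes did. The adjusted p in edgeR ran from 0.473 for Chil3 to 0.941 for Mrc1. At an unadjusted p under 0.05 there was 1 member, Chil3, in edgeR and in DESeq2 alike, against 9.02% of all genes in edgeR (4.15% on the negative side) and 8.94% in DESeq2. In CPM the genotypes did not overlap in 1 of 10 members, again Chil3, which was lower in IL-33 KO. The share among all genes was 13.9% (7.46% higher and 6.47% lower in IL-33 KO). The log2 fold change of IL-33 KO over WT was negative in 8 members and positive in 2, with a median of -0.22 where the median of all genes tested was -0.01 and 52% of genes were on the negative side. The shares of members called and of members without overlap are near the background, and 3 of the 8 negative members are the C1q genes, which ran together over the libraries.

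**Figure D1:**
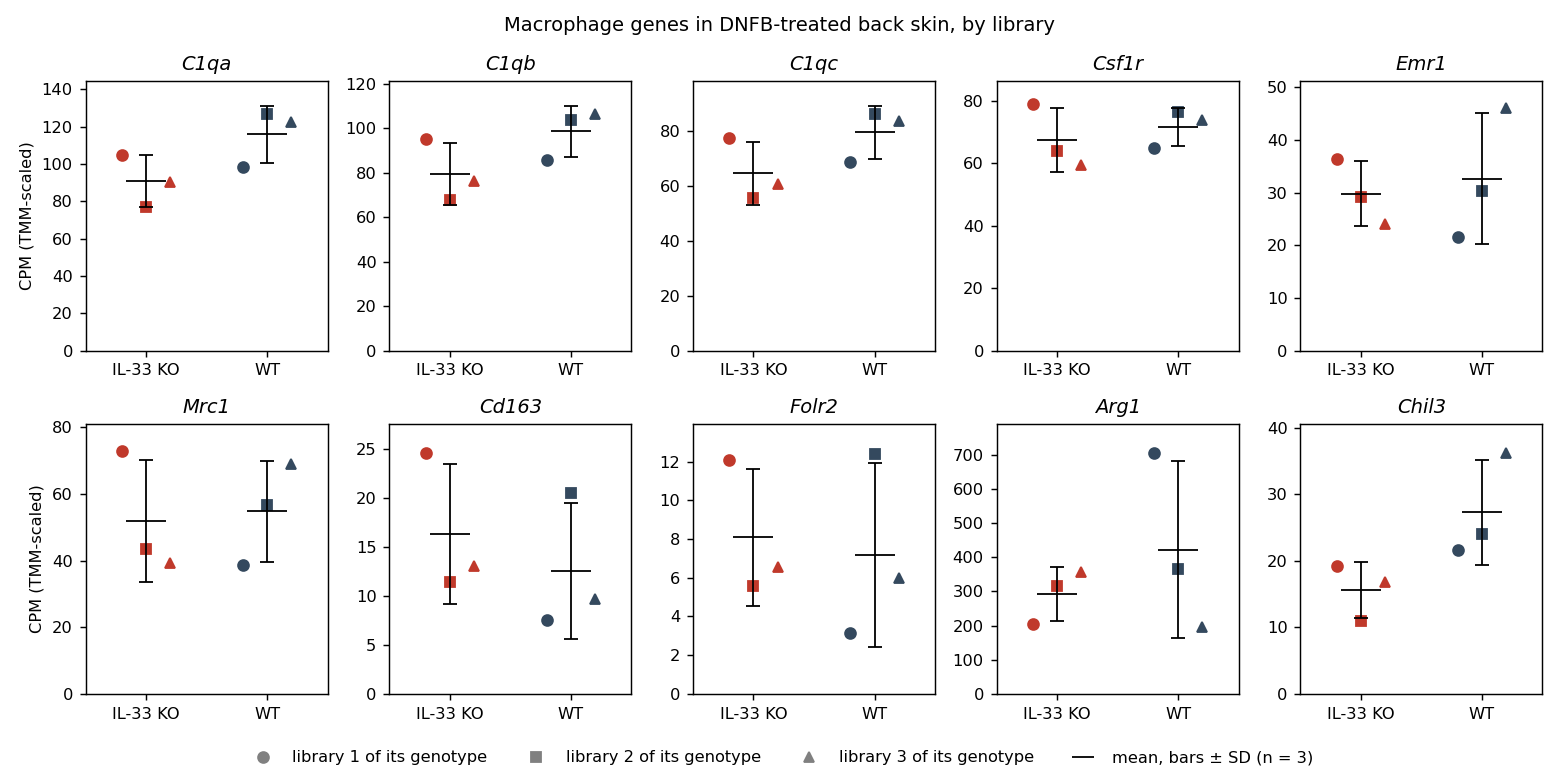
Level of each of the 10 macrophage genes in CPM (TMM-scaled; vertical axis from 0) in the 3 IL-33 KO libraries (red, left) and the 3 WT libraries (dark, right), with mean ± SD; marker shapes give the library number within a genotype. Only for Chil3 do all 3 IL-33 KO libraries (10.9 to 19.2 CPM) lie below all 3 WT libraries (21.6 to 36.3 CPM).

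C1q is the recognition molecule of the classical complement pathway, built from 3 kinds of chain whose genes lie side by side on mm10 chromosome 4, from 136880129 to 136898803 on the minus strand, within 18675 bases. C1qa, the A chain (136895917 to 136898803, minus strand, ENSMUSG00000036887), had 105, 77.0 and 90.3 CPM in IL-33 KO libraries 1, 2 and 3, against 98.5, 127 and 122 CPM in WT libraries 1, 2 and 3. C1qb, the B chain (136880129 to 136886187, minus strand, ENSMUSG00000036905), had 95.0, 67.7 and 76.2 CPM in IL-33 KO, against 85.6, 104 and 107 CPM in WT. C1qc, the C chain (136889804 to 136893065, minus strand, ENSMUSG00000036896), had 77.7, 55.5 and 60.8 CPM in IL-33 KO, against 68.7, 86.5 and 83.8 CPM in WT. All 3 chains had the same low libraries, IL-33 KO 2 and 3, and the genotypes overlapped because IL-33 KO 1 stood above WT 1. Mast cell markers had the same low libraries, with a summed level of 310, 245 and 241 CPM in IL-33 KO libraries 1, 2 and 3, against 294, 355 and 375 CPM in WT libraries 1, 2 and 3. Of these markers 6 of 6 were tested, 5 were on the negative side and 1 on the positive, none passed over all genes in edgeR and none was at 0, and their part in the C1q values was not tested. The log2 fold change was -0.35 ± 0.16 (SE) for C1qa, -0.31 ± 0.16 for C1qb and -0.30 ± 0.16 for C1qc, with adjusted p of 0.559, 0.597 and 0.607 in edgeR. The 95% interval of the difference in C1qa ran from 0.610-fold to 1.01-fold of the WT level.

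The 3 chains kept almost the same proportions in every library. On the FPKM scale, per length, the C1qb level was 0.838 ± 0.0299 of the C1qa level in IL-33 KO libraries, against 0.816 ± 0.0279 in WT libraries (SD, n = 3 each). C1qc stood at 0.616 ± 0.0299 of C1qa in IL-33 KO libraries, against 0.595 ± 0.00675 in WT libraries. The summed C1q level was 235 ± 39.1 CPM in IL-33 KO against 294 ± 35.9 CPM in WT. How alike 2 genes ran over the libraries was measured as the root mean square difference of their log2 CPM values after each gene was centred on its mean of the 6 libraries. C1qb and C1qc were the closest of the 45 pairs of members, at 0.0275, and C1qa lay 0.0457 from C1qb and 0.0482 from C1qc. Among the 14222 genes compared, with a mean of at least 1 CPM, the median distance from the mean C1q profile was 0.310, and 1 gene lay within 0.0482 of it. The 5 nearest were Dhrs13 (0.0408), Ankrd39 (0.0496), the interferon-gamma receptor gene Ifngr1 (0.0517), the procollagen processing gene Pcolce (0.0565) and Chst14 (0.0634). Likeness over 6 libraries is a description, and all genes compared share these libraries.

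**Figure D2:**
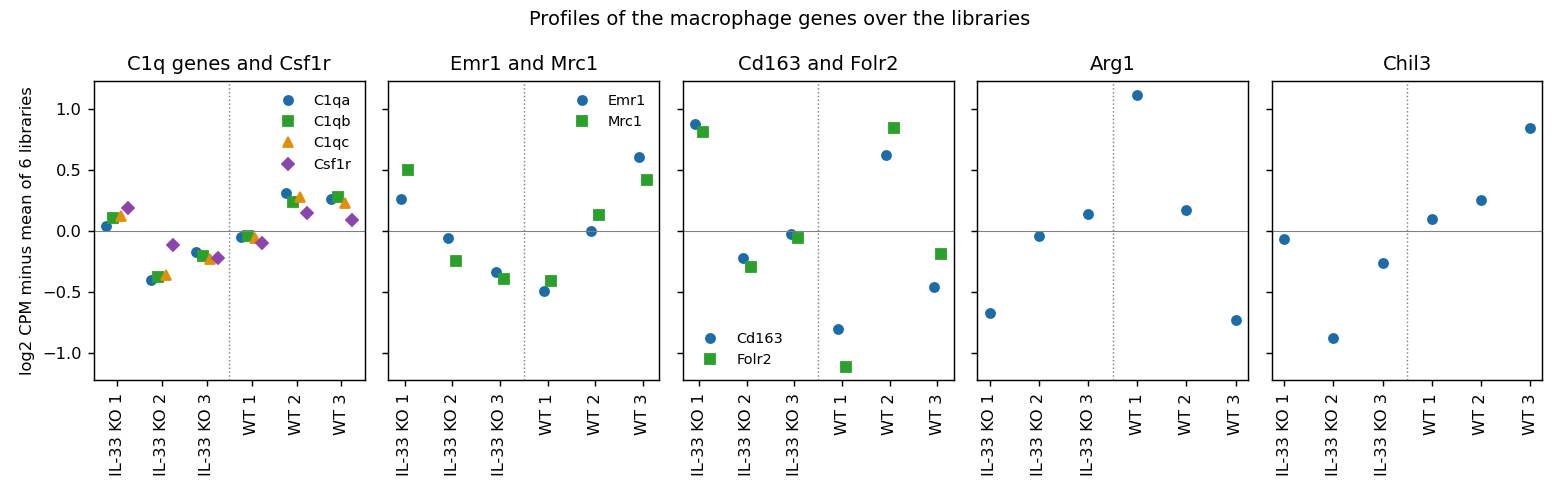
Log2 CPM of each member minus its mean of the 6 libraries (vertical axis), by library (IL-33 KO left of the dotted line, WT right of it). The C1q genes coincide, Emr1 and Mrc1 share high values in IL-33 KO 1 and WT 3, Cd163 and Folr2 share high values in IL-33 KO 1 and WT 2 and their lowest in WT 1, where Arg1 was highest (1.12).

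Csf1r, the growth factor receptor (chromosome 18, 61105572 to 61132149, plus strand, ENSMUSG00000024621), varied least of all members. It had 78.8, 63.9 and 59.4 CPM in IL-33 KO libraries 1, 2 and 3, against 64.7, 76.4 and 73.7 CPM in WT libraries 1, 2 and 3. The WT range lay inside that of IL-33 KO, with IL-33 KO 1 the highest library and IL-33 KO 3 the lowest. Its log2 fold change was -0.09 ± 0.14 (SE; adjusted p 0.857 in edgeR), with a 95% interval from 0.751-fold to 1.18-fold of WT. Its profile was nearest to that of C1qc, at a distance of 0.132. The gene overlaps Hmgxb3 on the opposite strand in GENCODE M21, and reads of the pair may not be told apart.

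Emr1, the F4/80 adhesion receptor by which mouse macrophages are commonly stained (chromosome 17, 57358686 to 57483529, plus strand, ENSMUSG00000004730), had 36.4, 29.1 and 24.0 CPM in IL-33 KO libraries 1, 2 and 3, against 21.5, 30.3 and 46.1 CPM in WT libraries 1, 2 and 3. The lowest and the highest library were both WT, 2.14-fold apart, and the IL-33 KO libraries lay between them. Mrc1, the mannose receptor CD206, which takes up glycoproteins and is raised by interleukin-4 (chromosome 2, 14229414 to 14332057, plus strand, ENSMUSG00000026712), had 72.9, 43.5 and 39.2 CPM in IL-33 KO, against 38.7, 56.6 and 69.0 CPM in WT. Both genes were high in IL-33 KO 1 and WT 3 and low in IL-33 KO 3 and WT 1, and their profiles were 0.160 apart. Log2 fold changes were -0.13 ± 0.28 (SE; adjusted p 0.893 in edgeR) for Emr1 and -0.08 ± 0.28 (adjusted p 0.941) for Mrc1. The sign of each turned when single libraries were left out: Emr1 had 0.20 when WT 3 was left out and 0.0022 when IL-33 KO 3 was, and Mrc1 had 0.12, 0.085 and 0.033 when WT 3, IL-33 KO 3 and IL-33 KO 2 were left out in turn.

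Cd163, the scavenger receptor for haemoglobin bound to haptoglobin (chromosome 6, 124304651 to 124330527, plus strand, ENSMUSG00000008845), and Folr2, folate receptor beta, a surface marker of resident macrophages (chromosome 7, 101839990 to 101845331, minus strand, ENSMUSG00000032725), were the members on the positive side. Cd163 had 24.5, 11.4 and 13.0 CPM in IL-33 KO libraries 1, 2 and 3, against 7.56, 20.5 and 9.62 CPM in WT libraries 1, 2 and 3. Folr2 had 12.1, 5.57 and 6.58 CPM in IL-33 KO, against 3.12, 12.4 and 5.99 CPM in WT. Both were highest in IL-33 KO 1 and WT 2 and lowest in WT 1, and the genotypes overlapped. Folr2 overlaps the antisense gene Gm10602 in GENCODE M21, and reads of the pair may not be told apart. Within WT alone Folr2 spanned 3.97-fold and Cd163 2.71-fold. The log2 fold change was 0.38 ± 0.42 (SE; adjusted p 0.789 in edgeR) for Cd163 and 0.17 ± 0.49 (adjusted p 0.924) for Folr2. The sign turned when IL-33 KO 1 was left out, to -0.044 for Cd163 and -0.24 for Folr2, and that of Folr2 also turned when WT 1 was left out (-0.18). Without WT 2 they were 0.92 (adjusted p 0.826) and 0.82 (adjusted p 0.869). The nearest genes to their shared profile, looked up after the values were seen, were Gm11554 (0.145), Gm11596 (0.173), the chemokine gene Cxcl12 (0.182), Grb14 (0.187) and the smooth muscle actin gene Actg2 (0.205). Adipocyte markers shared part of this pattern: 5 of 5 had a positive log2 fold change, and none was at 0 in any library. Their summed level was 858, 664 and 639 CPM in IL-33 KO libraries 1, 2 and 3, against 151, 631 and 458 CPM in WT libraries 1, 2 and 3. WT 1 was the lowest library and IL-33 KO 1 the highest. WT 2, a high library for Cd163 and Folr2, lay below every IL-33 KO library in this sum. The part of adipocytes in the Cd163 and Folr2 values was not tested. In RNA from a mixture of cell types, fewer cells of a type and less RNA per cell cannot be told apart.

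Arg1, arginase 1, which splits arginine into ornithine and urea and is made by keratinocytes as well as by alternatively activated macrophages (chromosome 10, 24915208 to 24927470, minus strand, ENSMUSG00000019987), was the highest member per length. It had 204, 315 and 357 CPM in IL-33 KO libraries 1, 2 and 3, against 704, 365 and 195 CPM in WT libraries 1, 2 and 3. WT 1 stood far above the rest and WT 3 was the lowest library, so the IL-33 KO values all lay inside the WT range. The log2 fold change was -0.53 ± 0.43 (SE; adjusted p 0.715 in edgeR), and it was 0.06 without WT 1 (adjusted p 0.975). Without WT 3 it was -0.87 (adjusted p 0.223). No other member resembled this pattern, as the nearest, Csf1r, was 0.710 away. The 5 nearest other genes, looked up after the values were seen, were Degs2 (0.139), a ceramide enzyme gene, Fosl1 (0.153), an AP-1 factor gene, the stefin genes Csta1 (0.156) and Stfa1 (0.162), and Gm5416 (0.159). Stefin genes are close copies of each other, and how reads were divided among them is uncertain. Keratinocyte markers were on the negative side in 5 of 5, none at 0, with a summed level of 27966 to 46516 CPM in IL-33 KO and 38419 to 63606 CPM in WT. Their sum was lowest in IL-33 KO 1 and WT 3, the libraries with the lowest Arg1, and highest in WT 2 (63606 CPM against 59409 CPM in WT 1), which was not the library with the highest Arg1. Neutrophil markers, of which 6 of 7 were tested and all 6 were on the negative side, summed to 1429 to 2340 CPM in IL-33 KO and 1436 to 6969 CPM in WT. WT 1 was highest there too, and Mpo was at 0 in some libraries. S100a8 and S100a9 carried most of the sum (3033 and 3802 CPM in WT 1), so it mainly gives the level of these genes. The part of these cell types in the Arg1 values was not tested.

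Chil3, the chitinase-like protein Ym1 (chromosome 3, 106147554 to 106167564, minus strand, ENSMUSG00000040809), a secreted lectin that monocytes and neutrophils also make, had the log2 fold change farthest from 0 among the members in the reported fit, though not when WT 2 or WT 3 was left out. It had 19.2, 10.9 and 16.8 CPM in IL-33 KO libraries 1, 2 and 3, against 21.6, 24.0 and 36.3 CPM in WT libraries 1, 2 and 3. Each IL-33 KO library was below each WT library in CPM, by a narrow gap between IL-33 KO 1 and WT 1. In FPKM, which lacks the TMM correction, IL-33 KO 1 (13.4) was above WT 1 (13.0), so the genotypes overlapped. The mean was 15.6 ± 4.25 CPM in IL-33 KO against 27.3 ± 7.88 CPM in WT (SD, n = 3 each). The log2 fold change was -0.81 ± 0.26 (SE), with a 95% interval from 0.377-fold to 0.869-fold of WT, an unadjusted p of 0.0151 and an adjusted p of 0.473 in edgeR, so the difference did not pass over all genes. By its p Chil3 ranked 500 of 15720 genes. In DESeq2 the adjusted p was 0.175. Over all 19 fits, the reported one included, the log2 fold change ran from -0.98 to -0.55, with the value nearest to 0 when WT 3 was left out, the unadjusted p was under 0.05 in 17, and the adjusted p ran from 0.175 to 0.958. WT 3, the highest library for Chil3, had a neutrophil marker sum of 1436 CPM, the lowest of the WT libraries. Most of that sum was S100a8 and S100a9, and the other neutrophil markers were mixed between WT 2 and WT 3. Retnlg (9.34 CPM), Ly6g (0.631) and Mpo (0.237) were higher in WT 3 than in WT 2 (2.66, 0.393 and 0). Csf3r (24.1) and Cxcr2 (14.5) were lower in WT 3 than in WT 2 (34.3 and 19.3). WT 1, the WT library with the lowest Chil3, was the highest of all libraries for Ly6g (1.66), Retnlg (54.6), Csf3r (44.6) and Cxcr2 (33.1). Mpo was at 0 in WT 1 and was not tested. WT 3 also had a fibroblast marker sum of 22468 CPM, the highest of all. Monocyte genes summed to 539, 445 and 443 CPM in IL-33 KO libraries 1, 2 and 3, against 499, 470 and 806 CPM in WT libraries 1, 2 and 3, so WT 3 was highest there too. The matrix gene Fn1, which fibroblasts also express, carried most of that sum, and none of the 12 monocyte genes was at 0. Ccr2, the receptor that defines recruited monocytes, had 62.8 CPM in WT 3 and 22.8 to 46.2 CPM in the other libraries. Fibroblast markers were on the negative side in 5 of 6, none at 0, at 11716 to 13742 CPM in IL-33 KO and 12432 to 22468 CPM in WT, and the part of neutrophils, monocytes and fibroblasts in the Chil3 values was not tested. The close copy Chil4 had at most 1 count in any library.

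**Figure D3:**
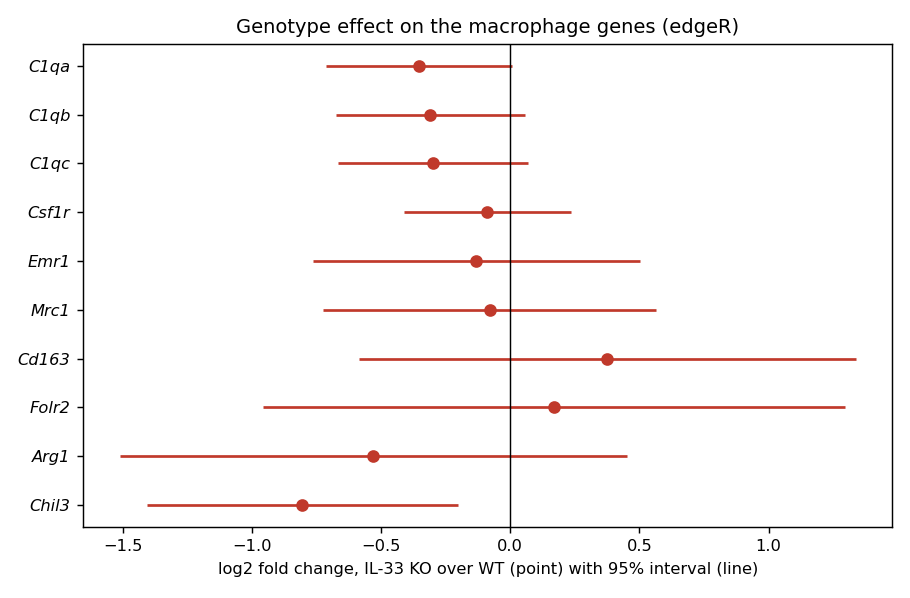
Log2 fold change of IL-33 KO over WT from edgeR (points) with 95% intervals (lines) for the 10 members. The interval of Chil3 (-1.41 to -0.20) lies below 0 before adjustment over all genes, those of the C1q genes end just above 0, and the widest belong to Cd163, Folr2 and Arg1.

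Per length, the order of the mean FPKM over all 6 libraries was Arg1 (237), C1qa (99.3), C1qb (82.1), C1qc (60.0), Csf1r (14.8), Chil3 (14.0), Mrc1 (10.1), Emr1 (9.72), Folr2 (7.11) and Cd163 (3.24). Arg1 was above C1qa in 6 of 6 libraries, and the order within C1q held in 6 of 6. C1qc was above Csf1r in 6 of 6 without overlap of their ranges. From Csf1r to Folr2, neighbours in this order did not differ beyond their spread: Csf1r was above Chil3 in 4 of 6 libraries, Chil3 above Mrc1 in 4, Mrc1 above Emr1 in 3 and Emr1 above Folr2 in 4. Folr2 was above Cd163 in 6 of 6 libraries.

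A ratio of each other member to the summed C1q level within a library does not depend on scaling between libraries. The log2 ratio of Csf1r to C1q was -1.82, -1.65 and -1.94 in IL-33 KO libraries 1, 2 and 3, against -1.97, -2.05 and -2.08 in WT libraries 1, 2 and 3. All IL-33 KO libraries were above all WT libraries, with a difference of 0.23. The log2 ratio of Chil3 to C1q was -3.85, -4.20 and -3.76 in IL-33 KO, against -3.55, -3.72 and -3.11 in WT, without overlap and with a difference of -0.48. Both had p = 0.1 in the two-sided exact permutation test, the smallest that 3 against 3 libraries allows, and an adjusted p of 0.35 over the 7 ratios. The other ratios overlapped. Their differences were 0.76 for Cd163 and 0.64 for Folr2 (p = 0.3 each, exact permutation test), 0.25 for Emr1 and 0.23 for Mrc1 (p = 0.5 each, exact permutation test), and -0.05 for Arg1 (p = 1, exact permutation test). The 7 ratios share the C1q denominator. With Ptprc, the gene of the leukocyte marker CD45, as denominator, the differences were -0.13 for Csf1r, -0.11 for Emr1 and -0.13 for Mrc1, of opposite sign, and -0.84 for Chil3, which then overlapped between the genotypes (p = 0.2, exact permutation test).

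**Figure D4:**
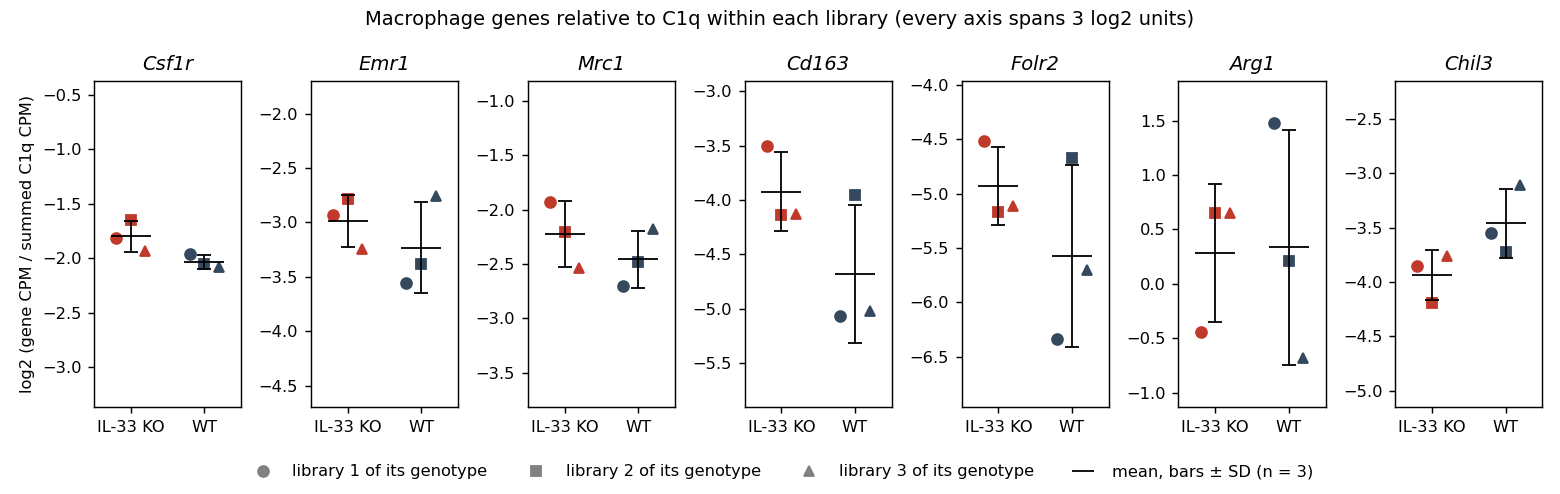
Log2 ratio of the CPM of each other member to the summed CPM of C1qa, C1qb and C1qc within a library (vertical axes each span 3 log2 units), for IL-33 KO (left) and WT (right) libraries with mean ± SD. Csf1r is higher in every IL-33 KO library than in every WT library (difference 0.23) and Chil3 lower (-0.48), and the other 5 overlap.

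The other genes of these pathways were taken as 8 lists with 109 symbols, of which 100 were tested. None passed over all genes in edgeR. An unadjusted p under 0.05 was reached by 8 of 100, against the 9.02% of all genes given above, and 14 of 100 did not overlap between the genotypes, against 13.9%. For each list the 2 genes with the smallest p are named.

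Of the CSF1 axis and lineage factors, 12 of 12 were tested, with 5 on the positive and 7 on the negative side and a median log2 fold change of -0.10. Il34, the epithelial ligand of Csf1r, had 10.9 ± 3.04 CPM in IL-33 KO against 15.3 ± 3.76 CPM in WT (adjusted p 0.601), and the signalling adaptor gene Tyrobp had 45.7 ± 9.95 CPM in IL-33 KO against 61.3 ± 20.6 CPM in WT (0.634). Further resident macrophage markers, 13 of 15 tested, had 3 positive and 10 negative values and a median of -0.22. Among them Ms4a7, a membrane protein gene of mature macrophages, had 19.2 ± 0.946 CPM in IL-33 KO against 26.1 ± 2.57 CPM in WT without overlap (adjusted p 0.437), and the chemokine gene Pf4 had 12.2 ± 4.84 CPM in IL-33 KO against 21.9 ± 7.40 CPM in WT (0.547). Vsig4 and Timd4, markers of some resident macrophages of other tissues, had 2 to 14 counts in a library and were not tested. General macrophage and phagocyte genes, 14 of 15 tested, were negative in 13 and positive in 1, with a median of -0.23. Trem2, a lipid-sensing receptor gene, had 7.06 ± 1.23 CPM in IL-33 KO against 9.62 ± 1.92 CPM in WT (adjusted p 0.582), and the lysosomal protein gene Cd68 had 27.5 ± 3.57 CPM in IL-33 KO against 35.6 ± 7.61 CPM in WT (0.587). The remaining gene, Marco, had 0 counts in WT 2 and at most 8 elsewhere.

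Other alternative activation genes, 13 of 16 tested, were positive in 3 and negative in 10, with a median of -0.22. Irf4, a transcription factor gene used in this state, had 3.97 ± 0.984 CPM in IL-33 KO against 2.50 ± 0.309 CPM in WT without overlap (adjusted p 0.527), and Ccl22, a chemokine gene for type 2 T cells, had 3.40 ± 0.233 CPM in IL-33 KO against 4.72 ± 1.09 CPM in WT (0.591). Retnla, Chil4 and Ccl17, standard markers of the state, were not tested, with at most 15 counts in a library. Classical activation genes, 11 of 12 tested, were positive in 3 and negative in 8, with a median of -0.12. The cytokine gene Tnf had 17.0 ± 8.16 CPM in IL-33 KO against 29.8 ± 30.5 CPM in WT (adjusted p 0.732), and Irf5, a factor of inflammatory macrophages, had 20.1 ± 0.710 CPM in IL-33 KO against 21.8 ± 1.05 CPM in WT without overlap (0.771). In FPKM the genotypes overlapped for Irf5, with IL-33 KO 1 (9.87) above every WT library (9.02 to 9.68). Arginine and polyamine genes, 10 of 10 tested, were positive in 6 and negative in 4, with a median of 0.08. Slc7a1, the arginine transporter gene, had 137 ± 15.0 CPM in IL-33 KO against 104 ± 12.7 CPM in WT without overlap (adjusted p 0.504), and Oat, which uses the ornithine that arginase makes, had 88.0 ± 10.7 CPM in IL-33 KO against 112 ± 26.2 CPM in WT (0.600).

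Classical complement genes and receptors, 15 of 17 tested, were positive in 8 and negative in 7, with a median of 0.02. C3, the central component downstream of C1q, had 96.4 ± 27.7 CPM in IL-33 KO against 59.6 ± 11.0 CPM in WT without overlap (adjusted p 0.473), and Serping1, the C1 inhibitor gene, had 128 ± 30.1 CPM in IL-33 KO against 159 ± 15.5 CPM in WT (0.622). Monocyte genes, 12 of 12 tested, were positive in 4 and negative in 8, with a median of -0.19. Ccl2, the chemokine that draws monocytes, had 6.52 ± 1.20 CPM in IL-33 KO against 15.1 ± 2.00 CPM in WT without overlap (adjusted p 0.182), and Nr4a1, a nuclear receptor of patrolling monocytes that stressed cells of many types express, had 15.0 ± 2.19 CPM in IL-33 KO against 28.9 ± 3.92 CPM in WT without overlap (0.187). In DESeq2 both passed, with adjusted p of 5.02e-05 for Ccl2 and 0.00062 for Nr4a1. The other adjusted p-values of these lists are from edgeR over all 15720 genes, and the errors are SD with n = 3.

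**Figure D5:**
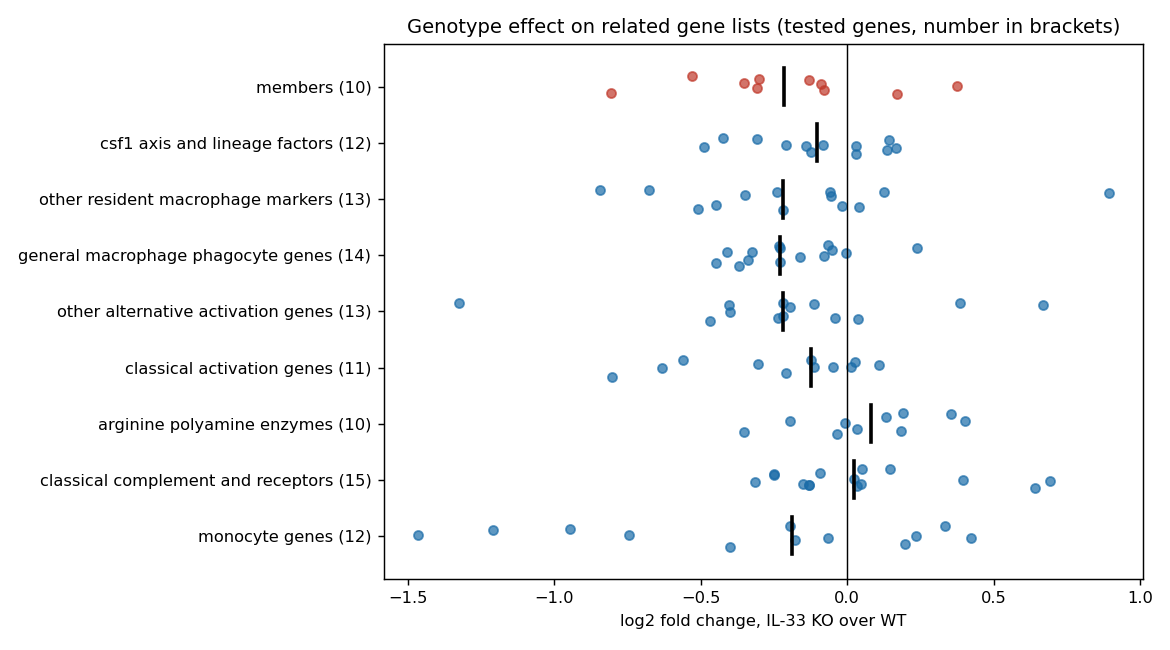
Log2 fold change of IL-33 KO over WT (horizontal axis) for the 10 members (red) and the tested genes of 8 related lists (blue; number in brackets); black bars are medians. Medians lie between -0.23 (general macrophage and phagocyte genes) and 0.08 (arginine and polyamine genes), and single genes scatter on both sides of 0.

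The libraries differed in make-up beside the genotype. Hair follicle markers, 7 of 7 positive and none at 0, summed to 9526 to 20216 CPM in IL-33 KO and 2524 to 5334 CPM in WT, so these sums did not overlap. The pan-leukocyte sum was 176 to 192 CPM in IL-33 KO and 145 to 209 CPM in WT. Cd207, the marker that defines Langerhans cells, the macrophage-like cells of the epidermis, had 0.506, 2.70 and 1.69 CPM in IL-33 KO, against 1.81, 1.70 and 3.31 CPM in WT. Muscle markers, of which 3 of 5 were tested and all 3 were positive, none at 0, summed to 98.9, 6.41 and 209 CPM in IL-33 KO libraries 1, 2 and 3 and to at most 4.11 CPM in WT. The part of tissue make-up in the macrophage gene values was not tested.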

How the data were processed

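RNA-seq libraries, 3 of IL-33 KO and 3 of WT mice, were grouped by their titles. The authors deposited read counts per gene and FPKM values for 35275 genes; STAR, RSEM and mm10 are named, without versions, per the submitters' processing notes. The deposited FPKM equal the counts divided by listed gene length and column total within a relative difference of 2.78e-07. The treatment of strand and of reads from close copies was not stated in the sources used here; Csf1r and Folr2 each overlap 1 gene on the opposite strand in GENCODE M21, so their reads may not be told apart from it.

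Counts were tested with edgeR 4.0.16 in R 4.3.3 (filterByExpr by genotype, minimum count 10; TMM; glmQLFit and glmQLFTest, two-sided; Benjamini-Hochberg over all genes tested, threshold 0.05). Standard errors came from the F statistic and 95% intervals from its degrees of freedom. The biological coefficient of variation was 21.3%. Alternatives used DESeq2 1.42.0 and limma 3.58.1; exact tests used scipy 1.17.1 and figures matplotlib 3.10.9. No 2 libraries agreed within sampling noise (chi-square at least 31.7 per degree of freedom). The members, the gene lists and the rule for naming genes were chosen with earlier results of these data known: all members, the 2 genes with the smallest p in each related list (or up to 4 that passed), and the 5 genes nearest to the C1q profile. The symbols C1s and Adgre4 were matched as C1s1 and Emr4. Promoters are from RefSeq (GRCm38.p6), which had a window for 6 of the members.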

Additional observations from a re-analysis of the deposited data

How the results depend on the processing

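In all 18 other fits 0 of 10 members passed, and the members' median log2 fold change stayed between -0.37 and -0.12 (without single libraries, -0.37 to -0.13). C1qa, C1qb, C1qc, Csf1r and Chil3 kept a negative sign in all of them. Emr1 turned to 0.00079 with log2(FPKM + 0.1). Without single libraries the log2 fold changes ran from -0.36 to 0.20 for Emr1, -0.41 to 0.12 for Mrc1, -0.044 to 0.92 for Cd163, -0.24 to 0.82 for Folr2 and -0.87 to 0.060 for Arg1; the cause was not tested. Over all genes 3 passed in the reported fit, 5 with upper quartile scaling, 5 with total counts, 33 without a filter, 5 with a CPM over 1 in 3 libraries, 206 in DESeq2, 11 in limma-voom, 15 with log2(FPKM + 1), 11 with log2(FPKM + 0.1), 6 with log2(FPKM + 1) unfiltered and 2 to 24 without single libraries. Of the related lists, the monocyte list alone had calls, 1 without a filter (Ccl2) and 2 (Ccl2 and Nr4a1) in DESeq2.

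With the replicate number as a block 2 genes and 0 members passed, and the members' median was -0.21. Same-numbered libraries did not deviate together (correlations of -0.264, -0.117 and -0.378 over genes), so the numbers were not taken as pairs. Of the ratios to C1q, those of Csf1r, Emr1 and Mrc1 turned to -0.13, -0.11 and -0.13 with Ptprc as denominator. Without single libraries the ratio differences ran from -0.56 to 0.52 for Arg1, 0.16 to 0.30 for Csf1r and -0.61 to -0.30 for Chil3. With 3 libraries per genotype the 95% intervals of Cd163, Folr2, Arg1 and Chil3 include differences of 2-fold, so differences of that size are not excluded for them.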
